A study of Mus musculus with 6 samples.

Results

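The genes described here are the metallothioneins Mt1 and Mt2, their regulator Mtf1, and 4 transporters of zinc and related metals, Slc30a1, Slc30a10, Slc39a14 and Slc39a10. These 7 genes were picked by symbol out of 25369 listed genes, and every one of them was found in all 6 libraries. They were picked with earlier results of the same libraries known, so their levels and their differences between treatments are given as a description and no test of them is read as support. The libraries are single-cell RNA-seq of mouse liver, made with the BD Rhapsody whole-transcriptome system, in which each RNA molecule carries a unique molecular identifier (UMI) and is counted once. All mice were wild-type males aged 8 to 10 weeks when the inferior vena cava was partially ligated, an operation that congests the liver, so ligated livers stand in both groups and an unligated liver is not analysed here. After 2 weeks an Alzet osmotic pump delivered either DMSO, the vehicle, or CWHM-12, a small-molecule inhibitor of αV integrins, at 100 mg/kg per day, and the mice were killed once treatment had lasted 4 weeks. There were 3 libraries per treatment, in 2 batches as the labels name them: DMSO 1, DMSO 2 and CWHM-12 1 in batch 2024.6, and DMSO 3, CWHM-12 2 and CWHM-12 3 in batch 2024.12. The labels give no mouse identity, so every p-value below measures the spread between libraries, which may be technical.

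Metallothioneins are small cysteine-rich proteins that hold zinc and copper inside the cell. When free zinc rises, the zinc-sensing transcription factor MTF1, the product of Mtf1, binds short metal response elements and turns on the metallothionein genes and Slc30a1, which encodes the zinc exporter ZnT1 of the plasma membrane. SLC30 proteins move metal out of the cytosol and SLC39 proteins move it in. In the liver, SLC39A14 (ZIP14) takes up zinc, manganese and iron that is not bound to transferrin, and SLC30A10 is known mainly as a manganese exporter. SLC39A10 (ZIP10) imports zinc. Glucocorticoids and inflammatory cytokines also raise metallothionein transcription in hepatocytes.

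The stretch of 250 bases before the start of Mt1, Mt2 and Slc30a1 is shown because these are the members that MTF1 is known to switch on. Sequences are RefSeq's on build GRCm38.p6, whereas the submitters' processing notes name GRCm39, so the coordinates belong to the former only. All 3 lie on the plus strand, Mt1 at chr8:94178839-94179088, Mt2 at chr8:94172368-94172617 and Slc30a1 at chr1:191906531-191906780. They are printed 5′ to 3′ in lower case, with matches on either strand to the core of the metal response element, TGCACNC or TGCGCNC, in capitals.
Mt1: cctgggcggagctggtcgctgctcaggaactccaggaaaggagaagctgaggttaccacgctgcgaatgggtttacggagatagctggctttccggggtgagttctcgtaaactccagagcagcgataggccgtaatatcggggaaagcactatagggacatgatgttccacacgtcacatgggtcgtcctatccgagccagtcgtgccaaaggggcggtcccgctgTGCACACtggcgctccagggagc
Mt2: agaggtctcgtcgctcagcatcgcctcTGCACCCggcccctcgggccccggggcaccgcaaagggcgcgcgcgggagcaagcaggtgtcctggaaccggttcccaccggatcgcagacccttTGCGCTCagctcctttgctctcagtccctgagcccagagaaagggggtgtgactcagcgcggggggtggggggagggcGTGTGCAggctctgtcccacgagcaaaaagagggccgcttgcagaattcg
Slc30a1: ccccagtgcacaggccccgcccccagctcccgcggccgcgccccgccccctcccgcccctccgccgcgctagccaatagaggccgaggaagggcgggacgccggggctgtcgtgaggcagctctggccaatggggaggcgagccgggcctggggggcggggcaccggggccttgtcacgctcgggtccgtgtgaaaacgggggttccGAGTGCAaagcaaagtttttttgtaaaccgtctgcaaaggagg
Within these 250 bases Mt1 held 1 match, from 23 to 17 bases before its start, and Mt2 held 3, the nearest from 50 to 44 bases before its start. Slc30a1 held 1 match from 43 to 37 bases before its start, and Slc30a10 held 3, of which 2 overlapped on opposite strands. Mtf1 and Slc39a10 held none in this window, and Slc39a14 had no entry among the 6 of 7 members that could be matched. Among 32851 RefSeq promoter entries cut in the same way, 21.4% held at least 1 match, 5.17% at least 2 and 1.26% at least 3. A match is a description of the letters and not a mapped binding site. Each start is that of a RefSeq entry, and the starts used in liver were not examined, so the counts hold for these windows only.

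Barcodes were taken as cells if they had 300 or more genes, 500 or more UMIs and no more than 30% of UMIs from mitochondrial genes. Of 6 libraries with 10000 barcodes each, 38697 barcodes passed, and 715 predicted doublets were then taken out. The 37982 remaining cells fell into 38 clusters, 36 of which were named as 17 cell classes from marker lists, and 14 classes had enough libraries with at least 20 cells to be compared. Libraries held between 28220477 and 48100436 UMIs, and no pair of libraries shared more than 5 barcodes of kept cells. All 10 of 10 hepatocyte markers, 11 of 11 markers of liver sinusoidal endothelial cells (LSEC), 11 of 11 stellate markers and 10 of 10 Kupffer markers were highest in the class of their name, as were 8 of 10 for cholangiocytes. The suspension was adjusted to about 90% nonparenchymal cells and 10% hepatocytes, so the number of cells per class was set by the preparation and is not compared. Levels are CPM, the UMIs of a gene summed over all cells of a class in a library and scaled to a common total with TMM factors. In such sums, fewer cells that express a gene and less RNA per cell cannot be told apart. CPM is not scaled by gene length, so levels are compared between classes and libraries and never between genes.

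Mt1 and Mt2 were the members that differed most between treatments, and the difference was clearest in hepatocytes, the cells that make most of the liver's plasma proteins and take up much of its zinc. For Mt1, DMSO 1, DMSO 2 and DMSO 3 gave 103, 123 and 125 CPM, whereas CWHM-12 1, CWHM-12 2 and CWHM-12 3 gave 360.4, 677 and 613 CPM; libraries are listed in this order throughout. Every CWHM-12 library was above every DMSO library, with the lowest CWHM-12 library, CWHM-12 1, well clear of the highest DMSO library. The means were 117 ± 12.3 and 550.3 ± 167 CPM (SD, n = 3 each), and the fitted log2 fold change was 2.02 (SE 0.35). Mt2 stood at 33.4, 43.9 and 33.4 CPM in the DMSO libraries and at 167.8, 253 and 211 CPM in the CWHM-12 libraries, again without overlap. Its means were 36.9 ± 6.03 and 210.5 ± 42.4 CPM (SD, n = 3 each), a log2 fold change of 2.46 (SE 0.34). These CPM rest on 132 to 437 Mt1 UMIs per DMSO library and 429 to 3122 per CWHM-12 library, and on 47 to 117 and 160 to 1075 Mt2 UMIs.

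The direction was the same in both batches. Within batch 2024.6 the log2 difference was 1.68 for Mt1 and 2.11 for Mt2, and within batch 2024.12 it was 2.36 and 2.77. Ordered by fitted fold change among the 10340 genes tested in hepatocytes, Mt2 came 1st and Mt1 4th in the upward direction. This order is part of what chose the genes and is printed as a description. edgeR's quasi-likelihood test with a batch term and Benjamini-Hochberg adjustment called 0 of 10340 genes in hepatocytes (0%), Mt1 and Mt2 among those not called, although 181 genes had an unadjusted p under 0.05. DESeq2 with the same design called 2 genes, and these were Mt1 and Mt2. Across all 10340 genes, 4.58% had every CWHM-12 library above every DMSO library, and among 5963 genes with a mean of at least 20 CPM, 15 (0.252%) combined that with a log2 fold change of 1 or more. The plot of all members in hepatocytes shows these values by library.

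**Figure D1:**
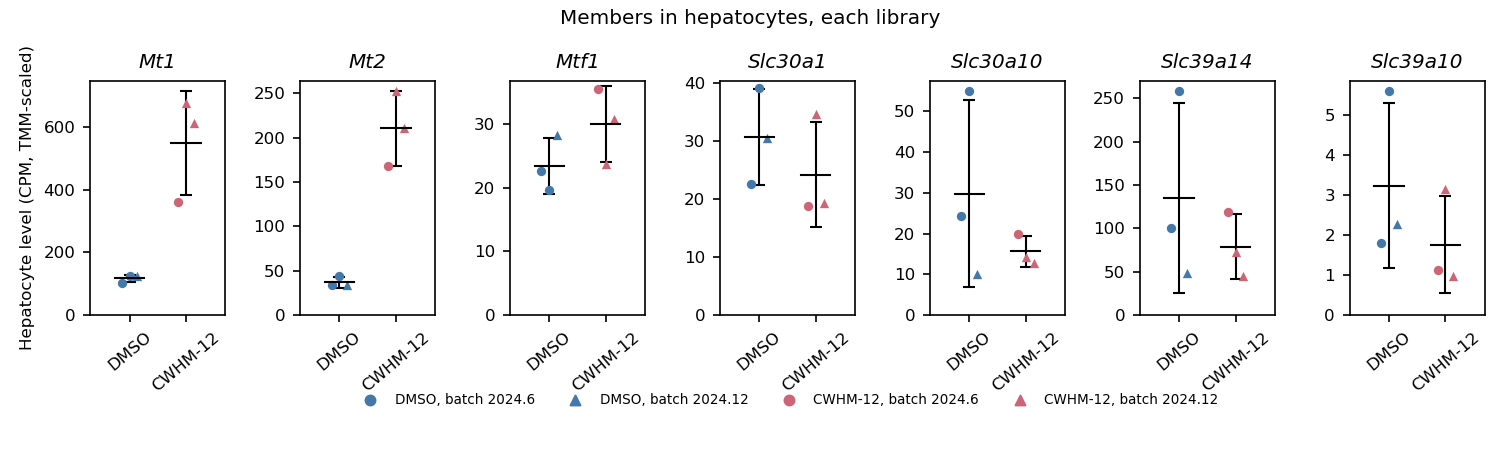
Level of each member in hepatocytes, in CPM with 1 panel and 1 linear axis per gene; points are libraries (3 DMSO, 3 CWHM-12, batch by marker shape), and bars are the mean and SD. The 3 CWHM-12 points lie above the 3 DMSO points for Mt1 (360.4 to 677 against 103 to 125 CPM) and Mt2 (167.8 to 253 against 33.4 to 43.9 CPM), and the groups overlap for the other 5 members.

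The other 5 members overlapped between treatments in hepatocytes. Mtf1 stood at 22.6, 19.6 and 28.2 CPM under DMSO and 35.5, 23.7 and 30.8 CPM under CWHM-12, so the libraries of both treatments interleaved. Slc30a1, the zinc exporter gene, stood at 22.6, 39.2 and 30.5 CPM against 18.8, 34.7 and 19.2 CPM, with the highest value in a DMSO library and the lowest in a CWHM-12 library. Slc39a14 and Slc30a10 varied widely among the DMSO libraries. Slc39a14 stood at 99.9, 258 and 48.2 CPM under DMSO and at 119, 72.6 and 44.6 CPM under CWHM-12. Slc30a10 stood at 24.4, 55.1 and 9.98 CPM under DMSO and at 19.9, 14.2 and 12.8 CPM under CWHM-12. DMSO 2 was the highest library for both of these genes and DMSO 3 and CWHM-12 3 were among the lowest. Both genes also split by batch. DMSO 1, DMSO 2 and CWHM-12 1, which share a batch, were each above DMSO 3, CWHM-12 2 and CWHM-12 3, which share the other. The part of batch in these levels was not tested. Slc39a10 was near the floor in hepatocytes, at 0.98 to 5.60 CPM, and was the 1 member not tested there because its counts were too low.

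The Mt1 and Mt2 difference was seen across many hepatocytes and did not rest on the single richest cell of each library. Some sums still leaned on few cells. In CWHM-12 2 the 5% of hepatocytes with the most UMIs of each gene held 59.9% of its Mt1 and 74.4% of its Mt2 UMIs. The single richest cell held 51 of the 132 Mt1 UMIs of DMSO 2, or 38.6%. With the richest cell of each library left out, Mt1 was 86.7 to 107 CPM in the DMSO libraries and 395 to 557 CPM in the CWHM-12 libraries, and Mt2 was 26.3 to 33.1 and 179.6 to 190.9 CPM (CPM of the summed UMIs without TMM scaling). To compare shares of cells at equal depth, each cell was thinned to 500 UMIs. At that depth 3.87%, 2.56% and 4.75% of hepatocytes under DMSO held an Mt1 UMI, compared with 14.6%, 18.1% and 20.6% under CWHM-12. Unthinned, at median depths of 1144 to 1446 UMIs per hepatocyte under DMSO and 1312 to 2211 under CWHM-12, the shares were 10.1% to 12.6% and 31.8% to 53.1%. For Mt2 the thinned shares were 1.73%, 1.07% and 1.39% against 5.74%, 7.17% and 5.98%. In B cells, the class with the lowest Mt1 mean, the thinned Mt1 share was at most 0.521% under DMSO and 0.201% to 2.44% under CWHM-12, below the hepatocyte share in each library.

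**Figure D2:**
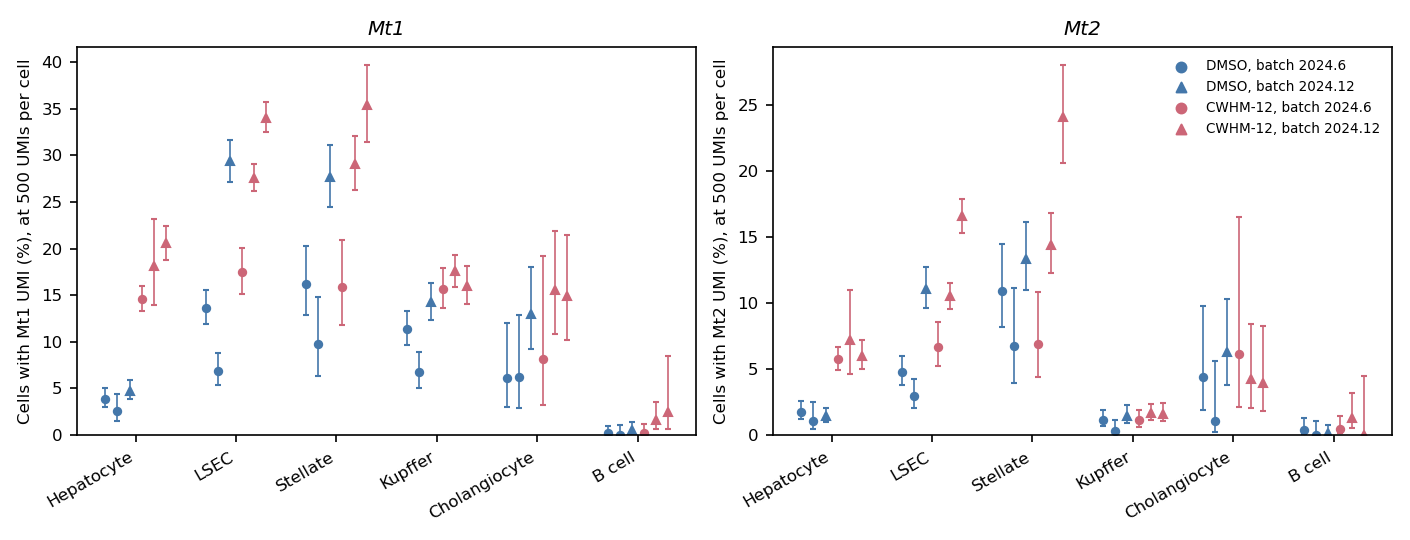
Percent of cells with at least 1 UMI of Mt1 (left) or Mt2 (right) after each cell was thinned to 500 UMIs, in 6 cell classes; each point is a library and each bar its 95% Wilson interval, which covers counting error only. In hepatocytes the Mt1 shares were 2.56% to 4.75% in the DMSO libraries and 14.6% to 20.6% in the CWHM-12 libraries, whereas in LSEC the libraries overlapped (6.88% to 29.4% against 17.4% to 34.1%).

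The counts were uneven from cell to cell. The 5% of hepatocytes with the most Mt1 UMIs held 67.8% to 75% of all Mt1 UMIs in the DMSO libraries and 38.8% to 59.9% in the CWHM-12 libraries, and the largest count in 1 cell was 10, 51 and 58 UMIs under DMSO and 26, 47 and 120 under CWHM-12. Both metallothioneins tended to be seen in the same cells. Among thinned CWHM-12 hepatocytes with an Mt2 UMI, 42.7% to 47.4% also held an Mt1 UMI, compared with 12.8% to 19.1% of those without. In DMSO 1 and DMSO 3 the shares were 32% of 25 and 33.3% of 24 cells with Mt2, against 3.37% and 4.34% of those without. DMSO 2 went the other way, at 0% of only 5 cells against 2.59%.

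Free RNA from broken cells can place UMIs of one cell type in another, and albumin (Alb), the most abundant hepatocyte transcript, gives a scale for it. For every 1000 Alb UMIs, hepatocytes held 7.33, 6.05 and 5.40 Mt1 UMIs under DMSO and 38.9, 18.9 and 22.8 under CWHM-12. The barcodes that failed the cell filter held 0.459 to 7.81 and 6.62 to 10.1. LSEC (201 to 3026), stellate cells (311 to 2964) and Kupffer cells (237 to 2043) stood far above hepatocytes on this ratio in 6 of 6 libraries. B cells stood above hepatocytes in 3 of 6 libraries, and at 3.08, 3.57 and 50 under DMSO and 21.4, 43.1 and 41.3 under CWHM-12 they were above the barcodes that failed the filter in each library, by little in DMSO 1 (3.01 there).

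Markers of other classes were low in hepatocytes. The summed level of the 11 LSEC markers in hepatocytes was 314 to 581 CPM under DMSO and 294 to 716 CPM under CWHM-12, or 0.992% to 2.21% of the level of the same markers in LSEC. The 11 stellate markers summed to 232 to 997 CPM and 66.4 to 308 CPM, and the Kupffer markers to 204 to 285 and 172 to 250 CPM. The only one of these lists with a marker at 0 in every hepatocyte sum was that of cholangiocytes (Krt7). The mitochondrial share of hepatocyte UMIs was 11.2%, 13.02% and 2.72% under DMSO and 6.77%, 8.88% and 5.75% under CWHM-12, overlapping between treatments. The part of these differences in the Mt1 and Mt2 values was not tested.

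Of the hepatocyte clusters, 5 had at least 20 cells in a library, and the Mt1 shift was seen in each that both treatments filled. Hepatocytes outside these clusters, and sums of fewer than 20 cells, are left out here. In CWHM-12 2 the 5 clusters held 70, 64, 69, 27 and 29 of its 265 hepatocytes. They held 93623, 102128, 166529, 36344 and 79822 of its 723473 hepatocyte UMIs. The few hepatocytes left over thus held a large part of its summed RNA, and they count in its Mt1 and Mt2 sums above. In cluster 5, led by Car3, Rgn and Akr1c6, Mt1 stood at 12.7 to 31.5 CPM under DMSO and 117 to 149.6 CPM under CWHM-12. In cluster 8, led by Arg1, Uox and Pck1, it stood at 30.5 to 159 and 497 to 537 CPM, and in cluster 9, led by the same 3 genes, at 90.9 to 230 CPM in 2 DMSO libraries and 402 to 793 CPM in the CWHM-12 libraries. Mt2 was separated in cluster 8 (0 to 47.3 against 166 to 276 CPM) and cluster 9 (13.8 to 22.4 against 150.1 to 261 CPM), and in cluster 5 it stood at 0 to 18.4 and 21.4 to 79.8 CPM. Cluster 14, led like cluster 5, had 1 DMSO library, where Mt1 was 150.5 CPM against 220 to 376 CPM and Mt2 60.9 CPM against 0 to 60.3 CPM. These sums are without TMM scaling. Some of them are small, so their low CPM rest on very few UMIs of the gene. Cluster 5 held 78895 UMIs of all genes in DMSO 2, 93623 in CWHM-12 2 and 100240 in CWHM-12 3. Cluster 8 held 65641 in DMSO 2.

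Cluster 11 differed from the other hepatocyte clusters in its RNA and in how it was spread over libraries. It was led by Gm29966, a predicted gene, and held 8523 to 30267 CPM of Malat1, a noncoding RNA of the nucleus, compared with 85.7 to 213 CPM in the other hepatocytes. It made up 22.1%, 78.5% and 5.03% of hepatocytes under DMSO and 20.4%, 10.2% and 5.72% under CWHM-12. Mt1 stood at 109.6 to 288 CPM under DMSO and 781 to 1486 CPM under CWHM-12 inside it, and Mt2 at 23.8 to 89.9 and 282 to 743 CPM. With this cluster left out, hepatocyte Mt1 stood at 69.3, 163.5 and 115.7 CPM under DMSO and 289.8, 545.7 and 530.2 CPM under CWHM-12, so the groups remained apart, and Mt2 stood at 16.2, 83.1 and 32.7 against 137.8, 193.6 and 185.5 CPM. In DMSO 2 these values without cluster 11 rest on few cells. Clusters 5 and 8 held 52 and 42 of its 101 remaining hepatocytes, with Mt1 at 12.7 and 30.5 CPM and Mt2 at 0 CPM. Slc39a14 stood at 349 to 646 CPM in cluster 11 and at 15.5 to 37.8 CPM in the other hepatocytes of the same libraries. For both the Slc39a14 level and the share of cluster 11, DMSO 2 was the highest library. DMSO 1 and CWHM-12 1 came next, and DMSO 3 and CWHM-12 3 were the lowest. DMSO 1, DMSO 2 and CWHM-12 1 share a batch, so the level and the share both split by batch. With the cluster left out, Slc39a14 averaged 27.1 CPM in hepatocytes, compared with 107 CPM with it.

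Along the axis of the liver lobule, metallothionein RNA was higher on the portal side in most libraries, as a description without a test. Each hepatocyte was scored from pericentral genes minus periportal genes, none of them a member, and split by the sign of the score; 5.65% of 8549 hepatocytes lay within 0.1 of the dividing value. The class is a range of a score and not a cell type. On this split Cyp2e1, a pericentral enzyme, stood at a log2 ratio of pericentral over periportal of 3.13 and Cyp2f2, a periportal enzyme, at -3.66. Both enzymes are in the score and are given only to show its direction. Mt1 averaged 184 CPM in pericentral and 418 CPM in periportal hepatocytes, a log2 ratio of -1.02 ± 0.54 (SD, n = 6 libraries), with the periportal side higher in 5 of 6 libraries. For Mt2 the averages were 47.8 and 170.0 CPM and the log2 ratio -1.52 ± 1.36, again with the periportal side higher in 5 of 6. The exception for both genes was DMSO 3, where Mt1 was 124 CPM on the pericentral and 122 CPM on the periportal side. With only the lowest and highest scoring parts of each library compared, 576 cells a side in DMSO 3, the log2 ratio was -1.59 for Mt1, periportal in 6 of 6 libraries, and -2.29 for Mt2, in 5 of 6.

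The treatments differed on both sides for Mt1 and on the portal side for Mt2. Periportal Mt1 was 122 to 176 CPM under DMSO and 539 to 756 CPM under CWHM-12, and pericentral Mt1 was 71.5 to 124 and 233 to 306 CPM. Periportal Mt2 was 25.1 to 66.3 CPM under DMSO and 267 to 318 CPM under CWHM-12, whereas pericentral Mt2 overlapped, at 20.1 to 45.6 and 28.9 to 89.1 CPM. Whether the treatments' difference itself differs between the sides was not tested. Among the transporters, Slc30a10 was also higher on the portal side in 6 of 6 libraries, with a log2 ratio of -0.60.

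**Figure D3:**
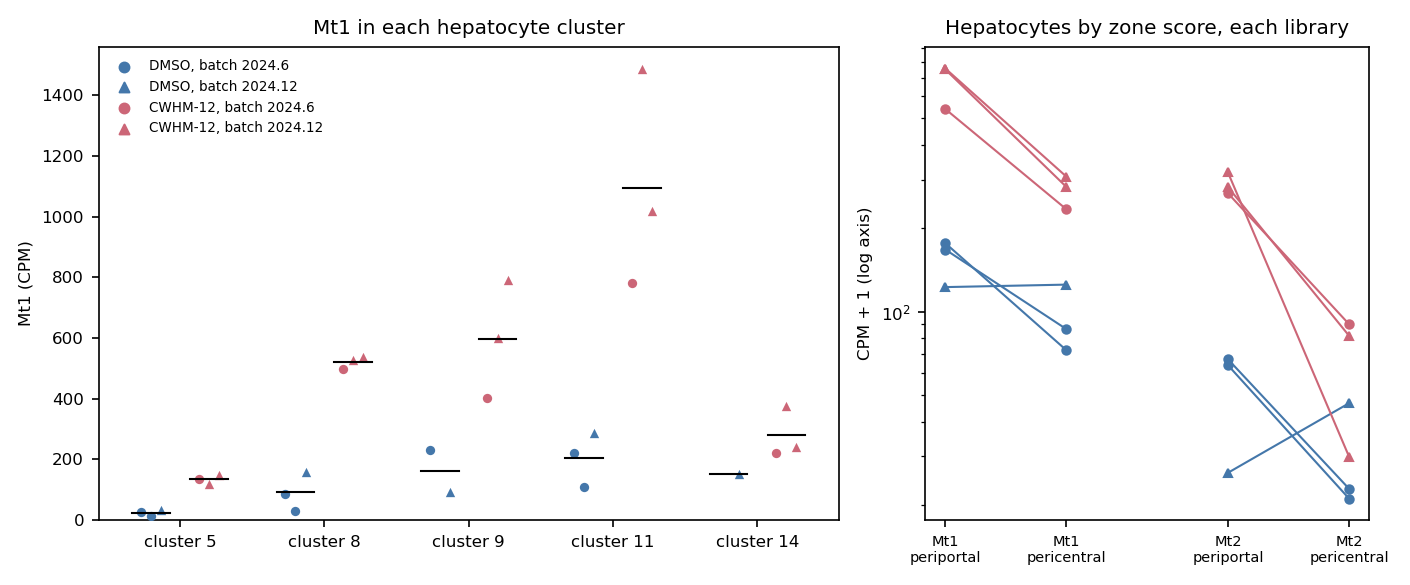
Metallothionein levels within hepatocytes without TMM scaling: on the left Mt1 by hepatocyte cluster in CPM (linear axis; points are libraries, lines the mean of each treatment), on the right Mt1 and Mt2 on the periportal and pericentral sides of the score as CPM + 1 on a log axis, with a line joining the 2 sides of each library. Mt1 was higher in the CWHM-12 libraries in clusters 5, 8, 9 and 11, and the line of every library except DMSO 3 falls from the periportal to the pericentral side.

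Outside hepatocytes, Mt1 was found at higher levels in several supporting cells. Its class means ran from 1058.5 CPM in mesothelial cells, the lining of the liver surface, through 656 CPM in stellate cells, the vitamin A-storing pericytes that make scar matrix, 574 CPM in LSEC, 394 CPM in cholangiocytes, the cells of the bile ducts, 345 CPM in Kupffer cells, the resident macrophages, and 334 CPM in hepatocytes. Vascular endothelium (214 CPM), monocytes and monocyte-derived macrophages (132 CPM), type 1 conventional dendritic cells or cDC1 (81.4 CPM), natural killer and type 1 innate lymphoid cells (NK and ILC1, 76.2 CPM), T cells (57.9 CPM), plasmacytoid dendritic cells or pDC (34.1 CPM), neutrophils (33.0 CPM) and B cells (21.3 CPM) followed. None of the 13 steps between neighbours in this order exceeded the spread between libraries. These means pool both treatments, and classes lacking a library pool fewer of them; hepatocytes averaged 117 CPM against 276 CPM in Kupffer cells under DMSO and 550.3 against 415 CPM under CWHM-12, so their order turned. The cholangiocyte mean was 263 CPM without CWHM-12 1, below both. The first step, mesothelial over stellate, held in 4 of 5 libraries. Mt2 followed a like order at the top, with 1188 CPM in mesothelial cells, 316 in stellate cells, 215 in LSEC, 189 in cholangiocytes (105 without CWHM-12 1, below hepatocytes) and 124 in hepatocytes, and there the steps from mesothelial to stellate cells (5 of 5 libraries, log2 difference 1.72 ± 0.63 SD) and from stellate cells to LSEC (6 of 6, 0.74 ± 0.54 SD) exceeded the spread.

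**Figure D4:**
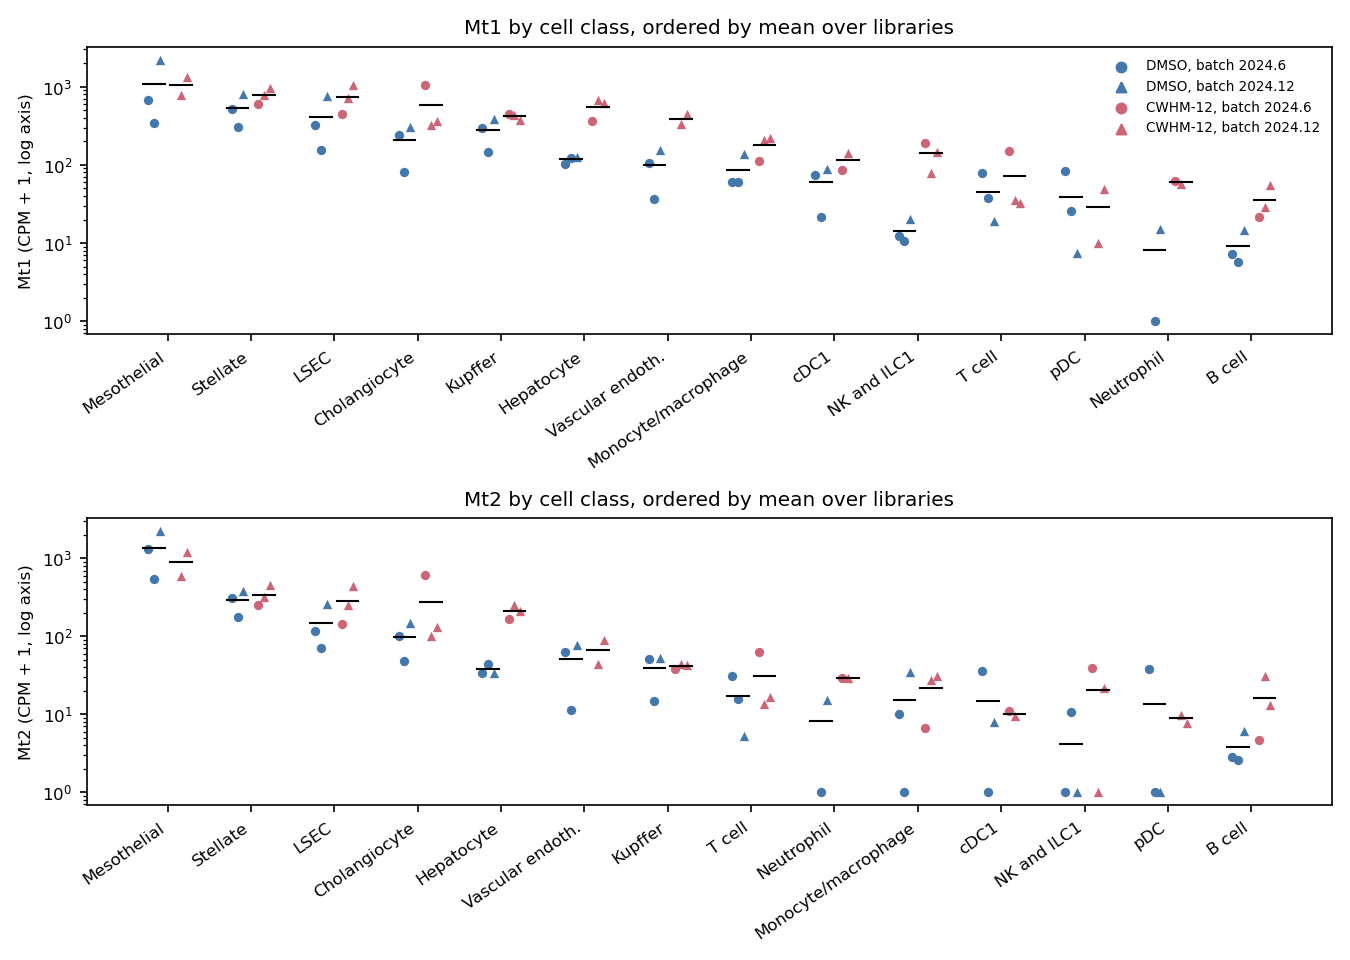
Mt1 (top) and Mt2 (bottom) in 14 cell classes ordered by their mean, as CPM + 1 on a log axis; points are libraries and short lines the mean of each treatment. The DMSO and CWHM-12 points separate in hepatocytes for both genes, and overlap for both in LSEC, stellate, Kupffer and mesothelial cells.

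In LSEC, the fenestrated endothelium of the sinusoids, Mt1 stood at 325, 154 and 761 CPM under DMSO and at 449.8, 718 and 1039 CPM under CWHM-12. The groups overlapped, and DMSO 3 was above 2 of the 3 CWHM-12 libraries; the log2 fold change was 0.56, of which batch 2024.6 gave 1.01 and batch 2024.12 gave 0.18. In stellate cells Mt1 stood at 510.3, 302 and 792 CPM against 593, 791 and 945 CPM (log2 0.34), and in Kupffer cells at 294, 146 and 387 against 439.96, 431 and 372 CPM (log2 0.53). In each of these 3 classes DMSO 2 was the lowest library and the difference was larger in batch 2024.6, which holds DMSO 2, than in batch 2024.12. The spread of Mt1 among DMSO libraries was thus wider in supporting cells than in hepatocytes, where the 3 DMSO libraries lay between 103 and 125 CPM.

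Set against other cells of the same library, hepatocyte metallothionein was higher on average under CWHM-12, and whether the libraries overlapped depended on the class compared. The log2 difference in Mt1 between hepatocytes and stellate cells was -2.66 to -1.29 in the DMSO libraries and -0.72 to -0.22 in the CWHM-12 libraries, without overlap. Against LSEC it averaged -1.52 and -0.39 and against Kupffer cells -1.13 and 0.36, and in both DMSO 2 (-0.32 and -0.24) lay within the CWHM-12 range. Against cholangiocytes it averaged -0.62 and 0.09, and CWHM-12 1 (-1.54) was below every DMSO library. For Mt2 the difference from stellate cells averaged -2.88 and -0.67 and that from Kupffer cells 0.13 and 2.33, both without overlap. These differences reuse the hepatocyte values above and are no separate evidence.

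In cholangiocytes Mt1 stood at 239, 79.0 and 306 CPM under DMSO and at 1049.5, 327 and 365 CPM under CWHM-12, so all CWHM-12 libraries were above all DMSO libraries, as 5.52% of the 9025 genes tested there were. A single cell held 350 of the 501 Mt1 UMIs and 220 of the 290 Mt2 UMIs of CWHM-12 1. Without the richest cell of each library, Mt1 stood at 66.8 to 274 and 308 to 341 CPM, and CWHM-12 1 dropped to 330.0 CPM. Mt2 overlapped in cholangiocytes, at 100.4, 48.1 and 147 CPM against 607.5, 99.7 and 129 CPM. edgeR called 1 of the 9025 genes (0.0111%), which was not a member. Mesothelial cells were the class with a negative fitted value for Mt1 (log2 -1.06), and Mt2 was negative there too (log2 -1.30), though the libraries overlapped. With CWHM-12 1 lacking, the batch term left both fits to DMSO 3 alone against CWHM-12 2 and 3, with or without DMSO 1. The means under DMSO and CWHM-12 were 1068 and 1044 CPM for Mt1, and 1372 and 911 CPM for Mt2. Mt1 stood at 677, 344 and 2183 CPM under DMSO and 770.3 and 1318 CPM in CWHM-12 2 and 3, and Mt2 at 1331, 542 and 2244 against 601 and 1221 CPM. CWHM-12 1 had too few mesothelial cells, DMSO 3 was the highest library for both genes, and 1 of 5847 genes was called there (0.0171%), not a member. Without DMSO 1, edgeR called both genes lower under CWHM-12 (log2 -1.07 and -1.30, adjusted p = 0.0113 and 0.000574), among 190 of 5532 genes.

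Among lymphocytes the counts were small. In NK and ILC1 cells Mt1 stood at 11.4, 9.61 and 19.1 CPM under DMSO and at 191.9, 78.6 and 146 CPM under CWHM-12, which were 2, 1 and 3 UMIs against 40, 8 and 7. This was the 1 member difference called at an adjusted p under 0.05 in any class: edgeR gave a log2 fold change of 3.37 (SE 0.61) and an adjusted p of 0.0324. There 9 of 3140 genes (0.287%) were called, all higher under CWHM-12, and 4.71% had every CWHM-12 library above every DMSO library. The other 8 called genes were App, Aqp1, Dnase1l3, Ehd3, Ifitm3, Kdr, Plpp3 and Tinagl1, of which Dnase1l3, Ehd3 and Kdr belong to the LSEC marker list. The summed LSEC markers in NK and ILC1 cells were 284 to 1425 CPM under DMSO and 462 to 4734 CPM under CWHM-12, up to 4.91% and 16.0% of their level in LSEC; 9 of 11 had a higher mean under CWHM-12, and none was at 0 in all libraries. The 10 hepatocyte markers summed to 594 to 2418 CPM under DMSO and 913 to 5098 CPM under CWHM-12 in the same cells, again with 9 higher on average under CWHM-12. The Mt1 UMIs came from 1, 1 and 3 cells under DMSO and 6, 6 and 3 cells under CWHM-12, and these cells held more LSEC marker RNA than the others in 4 of 6 libraries. In DMSO 1 the values were 13166 CPM of LSEC markers in the cell with Mt1 and 242 CPM in the cells without, in DMSO 2 they were 18509 and 598 CPM, and in DMSO 3 they were 128 and 298 CPM. In CWHM-12 1 they were 13040 and 166 CPM. The corresponding values were 9232 and 530.1 CPM in CWHM-12 2 and 414 and 469 CPM in CWHM-12 3. The part of LSEC and hepatocyte transcripts in this call was not tested. The call was lost with DESeq2, without the batch term, without DMSO 1, DMSO 3 or CWHM-12 2, and with classes assigned by marker scores alone, where the log2 fold change was 1.23; without CWHM-12 1 the gene had too few counts to be tested.

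B cells and neutrophils also showed no overlap for Mt1, on few counts. In B cells the values were 6.27, 4.79 and 13.8 CPM against 20.5, 27.9 and 54.6 CPM (background 4.94% of 8375 genes), from 3 to 27 UMIs and 9 to 33 UMIs. In neutrophils Mt1 and Mt2 were higher in both CWHM-12 libraries that had enough cells than in both DMSO libraries (background 14.6% of 1947 genes), but neither gene had enough counts to be tested. Vascular endothelium had Mt1 at 105, 35.9 and 155 CPM under DMSO and 328 and 445 CPM in CWHM-12 2 and 3, also without overlap (background 10.8% of 4897 genes), with a log2 fold change of 1.32 that edgeR did not call. With CWHM-12 1 lacking, the batch term left this fold change to DMSO 3 alone against CWHM-12 2 and 3. DMSO 3 had 25 such cells and 14 Mt1 UMIs, 10 of them in 1 cell. In T cells Mt1 overlapped, at 77.1, 36.9 and 18.4 against 148, 34.9 and 31.8 CPM, although within each batch the CWHM-12 mean was higher (log2 difference 1.43 and 0.77), and it also overlapped among monocytes with their derived macrophages, at 59.3, 59.7 and 137 against 112, 206 and 219 CPM.

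Over all classes Mt1 was tested in 12 of 14, with a higher fitted value under CWHM-12 in 11 of 12 and a median log2 fold change of 0.97, and 6 of these had an unadjusted p under 0.05. Mt2 was tested in 9, was positive in 5 of 9, and had a median of 0.03, with 3 at an unadjusted p under 0.05 and 0 called. The 7 members gave 52 tests in all, of which 9 (17.3%) had an unadjusted p under 0.05 and 1 was called; over all genes and the same classes 2584 of 102024 tests (2.53%) had such a p. Since the members were chosen from these contrasts, nothing is read from that. In LSEC, Kupffer cells, stellate cells, B cells, T cells, monocytes, cDC1, pDC, neutrophils and vascular endothelium edgeR called 0% of genes.

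Mtf1, which encodes the zinc-sensing factor, was spread evenly over the liver's cells. Its class means lay between 24.2 CPM in cDC1 and 49.0 CPM in NK and ILC1 cells, and none of the 13 steps between neighbouring classes exceeded the spread. In stellate cells it stood at 23.4, 26.6 and 29.4 CPM under DMSO and at 35.6, 37.4 and 37.1 CPM under CWHM-12, without overlap (background 4.64% of 11307 genes) and with a log2 fold change of 0.42. Kupffer cells (25.6 to 31.2 against 32.6 to 34.1 CPM; background 5.63% of 12572 genes), cholangiocytes (25.8 to 37.9 against 38.1 to 39.8 CPM) and B cells (17.6 to 27.6 against 30.4 to 48.5 CPM) also did not overlap, by margins that were small in Kupffer cells and cholangiocytes. Of 8 tested classes 7 had a positive fitted value, with a median log2 fold change of 0.21 and 0 called; 0 of 8 had an unadjusted p under 0.05.

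Slc30a1, the gene of the plasma membrane zinc exporter, was highest on average in vascular endothelium (77.3 CPM) and Kupffer cells (66.6 CPM), with 57.3 CPM in mesothelial cells, 53.9 in LSEC, 47.8 in cholangiocytes and 35.4 in stellate cells. Kupffer cells took the top place instead under a stricter cell filter, with doublets kept, and with classes assigned by marker scores alone. In Kupffer cells it stood at 56.8, 70.7 and 101 CPM under DMSO and at 73.8, 48.8 and 48.7 CPM under CWHM-12, and the batches differed in direction, with a log2 difference of 0.22 in 2024.6 and -1.04 in 2024.12. In LSEC it stood at 47.7, 52.5 and 57.1 against 53.8, 45.9 and 66.6 CPM. Only in pDC was each CWHM-12 library below each DMSO library, at 24.9, 41.3 and 51.5 CPM against 0 and 6.81 CPM (background 9.03% of 3744 genes), on 5 to 8 UMIs against 0 and 1, too few to be tested. It was tested in 11 classes, with 4 positive and 7 negative fitted values and 0 called, and 0 of 11 had an unadjusted p under 0.05.

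Slc30a10, known mainly as a manganese exporter, was found mainly in hepatocytes. It averaged 22.7 ± 16.7 CPM there (SD, n = 6 libraries) and at most 2.69 CPM in any other class, and it was 0 in all 6 monocyte and all 5 mesothelial sums. The step from hepatocytes to the next class held in 6 of 6 libraries, with a mean log2 difference of 3.31.

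Slc39a14, the importer of zinc, manganese and iron, was highest on average in hepatocytes (107 ± 79.6 CPM, SD, n = 6 libraries), followed by cholangiocytes (69.8 CPM) and pDC (62.1 CPM), though hepatocytes were above cholangiocytes in 4 of 6 libraries only. Without cluster 11 the hepatocyte mean was 27.1 CPM, below cholangiocytes, pDC and NK and ILC1 cells. The cholangiocyte values were the steadier ones, at 70.3, 55.0 and 81.0 CPM under DMSO and 73.3, 55.1 and 84.0 CPM under CWHM-12. In pDC it stood at 66.3, 33.0 and 64.3 against 44.7 and 102 CPM. NK and ILC1 cells averaged 32.5 CPM and every remaining class 11.96 CPM or less, LSEC among them at 5.12 CPM. In T cells each CWHM-12 library was below each DMSO library (11.7, 14.8 and 17.0 against 4.08, 4.76 and 11.4 CPM; background 4.07% of 7782 genes), on 3 to 14 UMIs per library, which was too few for the gene to be tested there.

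Slc39a10, a zinc importer, was low in hepatocytes, unlike Slc39a14, whereas pDC and NK and ILC1 cells were among the higher classes for both genes. It averaged 2.49 CPM in hepatocytes and 51.8 CPM in pDC, where it stood at 20.7, 57.8 and 90.1 CPM under DMSO and 35.7 and 54.5 CPM under CWHM-12; NK and ILC1 cells averaged 34.4 CPM and vascular endothelium 27.6 CPM. Stellate cells were above hepatocytes in 6 of 6 libraries, with a mean log2 difference of 1.87. In LSEC it stood at 17.3, 16.3 and 12.4 CPM under DMSO and at 19.5, 19.7 and 21.6 CPM under CWHM-12, without overlap (background 5.74% of 12061 genes) and from 67 to 282 UMIs per library. In NK and ILC1 cells it stood at 22.7, 19.2 and 19.1 against 33.6, 49.1 and 62.8 CPM, from 2 to 7 UMIs, and in cDC1 at 19.0, 20.6 and 21.0 against 10.1 and 8.40 CPM (background 10% of 5198 genes), from 3 to 9 UMIs, and it was tested in neither class. edgeR called Slc39a10 in 0 of the 6 classes where it was tested, and 0 of 6 had an unadjusted p under 0.05.

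**Figure D5:**
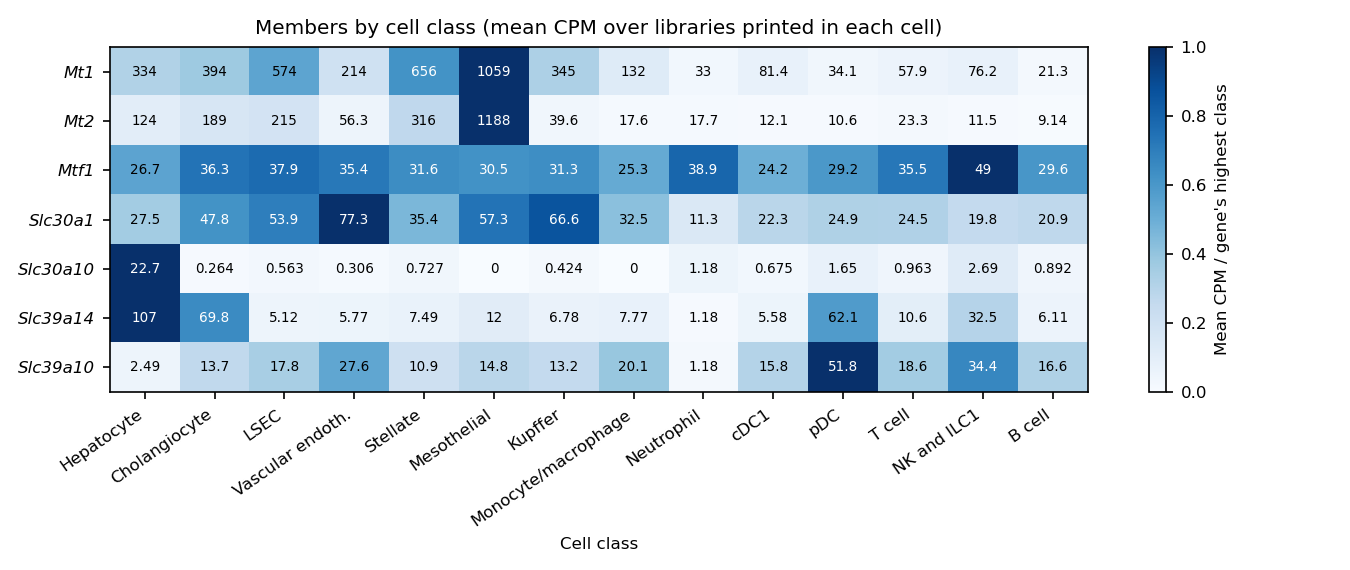
Mean CPM over libraries of each member (vertical axis) in 14 cell classes (horizontal axis), printed in each cell of the grid; the colour is the mean divided by that gene's highest class, so it compares classes within a gene and not genes. Slc30a10 is at 22.7 CPM in hepatocytes and at most 2.69 CPM elsewhere, Slc39a10 is highest in pDC at 51.8 CPM, and Mtf1 stays between 24.2 and 49.0 CPM in all 14 classes.

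The other genes of zinc handling gave no calls in hepatocytes. Of 22 other metallothionein and zinc transporter genes, 11 had enough counts to be tested in hepatocytes, 1 with a higher and 10 with a lower fitted value under CWHM-12, with a median log2 fold change of -0.30 against 0.01 for all 10340 genes. None of the 11 was called by edgeR or had an unadjusted p under 0.05. The 3 with the smallest p were Slc30a9 (74.3 ± 37.5 under DMSO and 48.1 ± 6.12 CPM under CWHM-12), Slc39a9 (25.5 ± 6.38 and 18.6 ± 1.43) and Slc39a1, which encodes a zinc importer of the plasma membrane (65.3 ± 10.5 and 59.0 ± 22.4; SD, n = 3 each). In LSEC 14 were tested, 7 with positive and 7 with negative values.

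Genes known to respond to other inducers of metallothionein were examined beside them. Of all genes tested in hepatocytes, 50.8% had a positive fitted value, with a median log2 fold change of 0.01. Of 17 genes of copper, iron and manganese handling, 16 were tested in hepatocytes, 8 positive and 8 negative, with a median log2 fold change of -0.09 and none under an unadjusted p of 0.05. Among the 13 measured glucocorticoid-induced genes 9 were positive and 4 negative, with a median of 0.05. Tsc22d3, a classical glucocorticoid target, was the 1 with an unadjusted p under 0.05, at 31.5 ± 11.7 under DMSO and 56.7 ± 11.1 CPM under CWHM-12 (SD, n = 3 each; log2 1.15), and it was not called. Per1, a clock gene that glucocorticoids also induce, stood at 28.4 ± 3.92 and 41.3 ± 8.65 CPM. All 12 of 12 tested genes of this list had positive fitted values in LSEC (median 0.45) and in Kupffer cells (median 0.33), with 0 called. Of all genes tested, 53.4% were positive in LSEC (median 0.02) and 52.2% in Kupffer cells (median 0.01).

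Acute-phase genes, which hepatocytes raise in inflammation, lay on both sides: 11 of 16 were positive and 5 negative, with a median of 0.23 and 2 at an unadjusted p under 0.05. Saa3 stood at 8.88 ± 4.98 under DMSO and 3.17 ± 0.619 CPM under CWHM-12, and Saa1 at 16.3 ± 5.17 and 37.1 ± 21.2 CPM (SD, n = 3 each). Of 9 tested genes of the oxidative stress response, 3 were positive and 6 negative, with a median of -0.01. edgeR called 0 genes of these 5 lists in hepatocytes, LSEC, stellate cells, Kupffer cells and cholangiocytes.

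Genes with the most similar distribution over cell classes were looked up as a description, over the 9 classes with all 6 libraries and among 10959 genes. For Mt1 the highest Pearson correlation of class means was with Septin10 (0.971), followed by Kank2 and Cdc42bpb, and for Mt2 with Zfp9 (0.986), followed by Fzd8 and Dmd. The leading genes for the others were Pafah1b2 for Mtf1 (0.964), Gpr157 for Slc30a1 (0.982), Gm36041 for Slc30a10 (0.995), Igsf5 for Slc39a14 (0.983) and Lrp10 for Slc39a10 (0.984). With 9 points that share libraries, many genes reach such values. Over the 6 hepatocyte libraries, among 5963 genes, the gene most like Mt1 was Elavl1 (r = 0.989; 40.6 ± 0.833 under DMSO and 55.1 ± 3.07 CPM under CWHM-12, SD, n = 3 each), and Mt2 came next (r = 0.987), followed by Eif2b5, Ccdc86 and Ccdc58. These points share treatment and batch.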

How the data were processed

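Each library was deposited by the authors as a matrix of raw UMI counts with 10000 barcodes, and GRCm39 is the build named per the submitters' processing notes; the aligner and annotation were not given in the sources used. The 7 members and all gene lists were chosen with earlier results of these data known. Cells were filtered, doublets were scored with Scrublet per library and removed above a score of 0.25, and the cells were clustered with scanpy 1.11.5 and leidenalg 0.10.2 in Python 3.11.15 (2000 variable genes, 40 components, 20 neighbours, resolution 1.5). At that doublet score 1.11% to 2.72% of cells were removed per library; the automatic thresholds marked 0.0372% to 1.09% and were not used. Clusters were named from marker lists, and 2 clusters (394 cells) stayed unnamed. Raw counts were summed per library and class wherever a library had at least 20 cells. edgeR 4.0.16 in R 4.3.3 was run with TMM, its default filter on low counts, a batch term and Benjamini-Hochberg adjustment over all genes of a class, with a threshold of 0.05. A prior count of 2 was set only for the log2 CPM behind the within-batch differences and the correlations of same-numbered libraries. DESeq2 1.42.0 was an alternative. Correlations and differences between classes used log2(CPM + 1). The test script was tested on simulated data. Members were named in every class; of each list, the 3 genes of smallest p in each of 5 classes were eligible to be named. Deviations of the same-numbered libraries of the treatments correlated at 0.11, -0.09 and 0.48 in hepatocytes. Libraries numbered 1 and 3 share a batch across treatments and those numbered 2 do not, so these values cannot settle whether the numbers are pairs. They were not taken as pairs. Classes lacking a library were mesothelial cells, vascular endothelium and pDC (CWHM-12 1), cDC1 (CWHM-12 3) and neutrophils (DMSO 1 and CWHM-12 3). Intervals cover counting error only. Promoter sequences came from RefSeq.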

Additional observations from a re-analysis of the deposited data

Results flagged for a closer look

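Slc39a10, a zinc importer, was singled out because its libraries moved in opposite directions in different classes. In LSEC every CWHM-12 library was above every DMSO library, with a mean 1.32 times that of DMSO, and in NK and ILC1 cells likewise, with a mean 2.38 times that of DMSO. In cDC1 both CWHM-12 libraries were below all 3 DMSO libraries, with a mean 0.458 times that of DMSO. Of all genes tested in these classes, 5.74% in LSEC and 4.71% in NK and ILC1 cells were above in the same way, and 10% in cDC1 were below. The difference between these classes was not tested. The NK and ILC1 and cDC1 values rest on 2 to 9 UMIs per library, and those of LSEC on 67 to 282.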

How the results depend on the processing

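No called value changed its direction; among values that were not called, the fitted sign of Mt1 changed in 1 of 157 combinations of class and setting, of Mt2 in 16 of 112 and of Slc30a1 in 19 of 157, and medians of 2 lists changed sign (below). The hepatocyte log2 fold change stayed between 1.69 and 2.37 for Mt1 and between 2.02 and 2.79 for Mt2 over 16 alternatives, all at an unadjusted p under 0.05; both genes were called in the same 3, namely DESeq2, no filter on low counts, and without DMSO 2 (adjusted p from 8.6e-05 to 1.0 for Mt1 and 7.63e-07 to 1.0 for Mt2). For Mt2 it was 2.02 without the nuclear-type hepatocyte cluster (cluster 11, an alternative chosen after seeing the data) and 2.16 to 2.79 when 1 library was left out. Hepatocyte genes called rose from 0 to 2 with DESeq2, 6 without the low-count filter, and 0 to 2 when 1 library was left out (2 without DMSO 2). The 9 genes called in NK and ILC1 cells became 0 without the batch term, 0 with the replicate block, 0 with classes from marker scores alone, 5 under a stricter cell filter, 23 under a looser one, 65 with doublets kept, 70 without the low-count filter and 0 to 49 when 1 library was left out (49 without DMSO 2, 35 without CWHM-12 3, 0 without any other), and Mt1 lost its call there in 7 settings (adjusted p = 0.104 with the replicate block). Members called over all classes went from 1 to 0 without the batch term, with the replicate block, under the stricter filter or with marker scores alone, 2 with DESeq2, 5 without the low-count filter, and 0 to 3 when 1 library was left out (3 without DMSO 2, 2 without DMSO 1, which were Mt1 and Mt2 lower in mesothelial cells, 0 without CWHM-12 1 or CWHM-12 2). The mesothelial calls rest on DMSO 3 as the only DMSO library of its batch. Slc39a14 in hepatocytes fell from 107 to 27.1 CPM without the nuclear-type cluster. The zone ratio of Mt1 was -1.59 on the lowest and highest scores. The glucocorticoid median in hepatocytes ran from -0.29 without DMSO 3 to 0.63 without CWHM-12 1, and the acute-phase median ran from -0.66 without DMSO 3 to 0.98 without CWHM-12 1. The cause of these changes was not tested. Values of a few UMIs per library, as in NK and ILC1 cells, neutrophils and cDC1, are limited by depth.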

Other observations

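Other zinc transporter genes marked different liver cells, as a description. Slc39a8, which encodes the importer ZIP8, stood at 747 ± 271 CPM in mesothelial cells and 290 ± 32.7 CPM in LSEC, but averaged 19.5 CPM in hepatocytes (SD over libraries, here and below). Slc39a4, the importer known for zinc uptake in the gut, was highest in cholangiocytes at 182 ± 33.4 CPM, followed by mesothelial cells with 52.3 CPM. Slc39a1 was high in vascular endothelium (268 ± 58.2 CPM), Kupffer cells (264 ± 30.3 CPM) and LSEC (236 CPM), compared with 62.2 CPM in hepatocytes. Slc30a9 had its highest class mean in hepatocytes, at 61.2 ± 28.0 CPM, and Slc39a6 was highest in T cells at 50.8 ± 7.0 CPM.

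Slc30a1 was also compared between cluster 11 and the other hepatocytes. In DMSO 1, DMSO 2 and CWHM-12 1 it stood at 64.2, 57.2 and 58.8 CPM in cluster 11 (35, 36 and 63 UMIs) and at 9.72, 15.6 and 9.80 CPM in the other hepatocytes. In DMSO 3, CWHM-12 2 and CWHM-12 3 the cluster held fewer cells. There Slc30a1 stood at 14.1, 27.5 and 17.3 CPM in the cluster, from only 2, 1 and 4 UMIs. In the other hepatocytes of these libraries it stood at 30.7, 30.6 and 17.3 CPM. DMSO 1, DMSO 2 and CWHM-12 1 share a batch, and DMSO 3, CWHM-12 2 and CWHM-12 3 share the other. The levels in the cluster and in the other hepatocytes thus both split by batch, in opposite directions. The part of batch was not tested.

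In the 50 bases after the start of the RefSeq entry, the core motif was found 2 further times for Mt1 and once each for Mt2 and Slc30a1, and not for the other matched members. Whether these bases are transcribed in liver was not examined. Over the joined 300 bases Mt2 held 4 matches, and 0.517% of the RefSeq entries held 4 or more.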
